A study of Mus musculus with 6 samples.

Results

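Arginine, nitric oxide and polyamine metabolism was followed through 9 genes, Arg1, Arg2, Nos2, Slc7a2, Ass1, Odc1, Srm, Sms and Sat1, chosen by name and each matching 1 row of the 31617 genes in the table. RNA was sequenced from pancreatic macrophages, sorted as CD45+CD11b+F4/80+ cells from wild type Balb/c mice after magnetic enrichment of CD45.2 leukocytes. Acute pancreatitis was induced by 10 hourly intraperitoneal doses of caerulein, which resembles cholecystokinin and overstimulates the acinar cells, and the caerulein libraries date from days 1, 3, 4, 5 and 7 counted from the first dose. The mock library, called day 0, came from mice that received saline in the design text, while its own label gives no treatment. The design text has mice fasted overnight before the injections, and day 4 is named by its sample labels alone. Each day is a single library from a pool of more than 3 mice. Differences between days therefore have no replicate check, and all days share the same mock library. Intervals cover counting error only, because each day has 1 library. They may be too narrow even for that, because no molecular identifiers mark the reads as independent molecules.

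Macrophages use arginine along competing routes. Nitric oxide synthase turns it into nitric oxide and citrulline, and citrulline can be made back into arginine by argininosuccinate synthase and argininosuccinate lyase. Arginases instead split arginine into urea and ornithine, which ornithine decarboxylase turns into putrescine, the precursor of the polyamines spermidine and spermine. High inducible nitric oxide synthase is the textbook mark of classically activated mouse macrophages, and high arginase 1 that of alternatively activated ones.

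The libraries held between 14853084 and 25726455 reads, and the deposited values are normalised read counts. Levels are given on that scale. Log2 ratios add a pseudocount of 17.8 to both values unless they are said to be plain, and a gene is called higher or lower when it differs at least 2-fold on that scale. Of the 9 genes 7 were among the 10000 genes with the highest mean, here called expressed. Slc7a2 and Nos2 were not, so they are given as values and are not in the counts. The 3 genes of the sort were present in every library, with lowest values of 7282 for Ptprc, which encodes CD45, of 9671 for Adgre1, which encodes F4/80, and of 678 for Itgam, which encodes CD11b. Itgam was lower than mock on days 4 and 5, at 678 and 687 against 1900, and lower on day 4 than on day 3, when it was at 1409 (log2 ratio -1.04, and -0.89 under another scaling). The symbol Itgam has 2 rows, and these values are from the row with the higher mean. Of 10 macrophage genes, which include the 3 of the sort, none was at 0 in any library. On day 1 Cd68 and Fcgr1 were higher than mock and Csf1r, C1qa and C1qb lower, and none was called on day 3. On day 4 Cd68 and Mertk were higher and Itgam lower. On day 5 Itgam was lower and 5 were higher than mock, Adgre1, Fcgr1, Mertk, C1qa and C1qb. On day 7 Fcgr1 and Lyz2 were lower and none was higher.

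Apart from Ass1 on day 1, the 7 expressed members were within 2-fold of mock on days 1 and 3, and 2 or 3 of them were lower on each later day. Against mock, on day 1 Ass1 alone was higher and none was lower, where 6.68% of expressed genes were higher and 9.58% lower. No member was called on day 3, against 3.73% higher and 5.71% lower. On day 4 Sat1 was higher and Arg1 and Ass1 were lower, against 3.31% and 8.11%. On day 5 Arg1 and Arg2 were lower, against 3.68% higher and 6.4% lower of all expressed genes. On day 7 Arg1, Arg2 and Odc1 were lower, against 1.96% higher and 6.57% lower. The median log2 ratio of the 7 members was 0.40, 0.07, -0.56, -0.76 and -0.93 on days 1, 3, 4, 5 and 7, and that of all expressed genes was 0.15, 0.08, -0.01, 0.12 and -0.11. With so few members these counts describe single genes and not the pathway.

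The split of all expressed genes depended on scaling. With values scaled to the library total it was 382 higher and 1286 lower on day 1, in place of 668 and 958. On day 4 it was 224 and 1029 on that scale and 465 and 719 after quantile normalisation, in place of 331 and 811. On day 5 it was 240 and 749 scaled to the library total, in place of 368 and 640. On day 7 it was 562 and 296 scaled to the library total, 438 and 511 after quantile normalisation and 266 and 498 after centring on the median expressed gene, in place of 196 and 657. Between days, the split from day 3 to day 4 was 448 higher and 487 lower after centring and 415 and 489 after quantile normalisation, in place of 323 and 589. From day 5 to day 7 it was 839 and 145 scaled to the library total, 624 and 281 after centring and 557 and 318 after quantile normalisation, in place of 507 and 468.

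**Figure D1:**
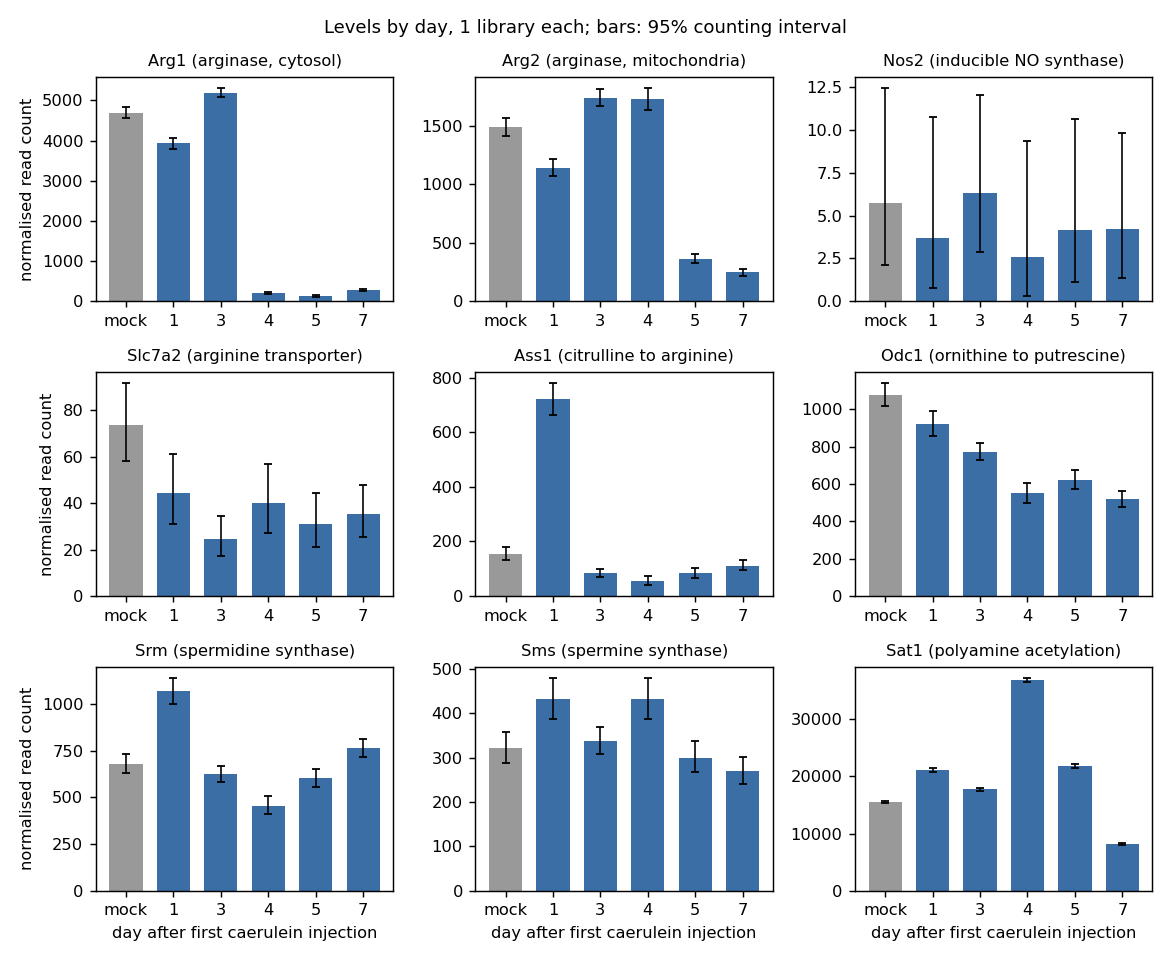
Normalised read count of each of the 9 genes (vertical axes, each from 0) in the mock library (grey bar) and on days 1, 3, 4, 5 and 7 after the first caerulein injection (blue bars), 1 library per bar, with the 95% counting interval as error bar. Arg1 is high in mock and on days 1 and 3 and low from day 4, Arg2 is high up to day 4 and low on days 5 and 7, and Nos2 stays at or below 6.34.

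The arginases were high early and low late, and they parted on day 4. Arg1 (ENSMUSG00000019987), the cytosolic arginase, was measured at normalised read counts of 4691 in mock and 3934 and 5194 on days 1 and 3, then at 203, 115 and 278 on days 4, 5 and 7. The 3 early values all lie far above the 3 late ones, and no neighbours in the order of the 6 levels lay within counting error of each other. Against mock the log2 ratio was -0.25 on day 1 and 0.15 on day 3, and then -4.41, -5.14 and -3.99 on days 4, 5 and 7. Without pseudocount Arg1 was 23.1-fold lower than mock on day 4, with a plain log2 ratio of -4.53 (95% counting interval -4.77 to -4.30), 40.6-fold lower on day 5 and 16.9-fold lower on day 7. Nearly all of that difference lay between the day 3 and day 4 libraries, where the log2 ratio was -4.56, in a step in which 5.89% of expressed genes were lower and in which Itgam of the sort was lower as well. Day 7 was above day 5 by 1.15, a step in which 5.07% of expressed genes were higher (8.39% scaled to the library total), yet remained far below mock. With a pseudocount 5 times as large that step was 0.84 and no longer a call.

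Arg2 (ENSMUSG00000021125), the mitochondrial arginase, was still at its early level on day 4. Its normalised read counts were 1487 in mock, 1142, 1740 and 1729 on days 1, 3 and 4, and 364 and 245 on days 5 and 7. Its 4 values up to day 4 are all above the 2 later ones, and days 3 and 4 were within counting error of each other. The log2 ratio to mock was -0.38, 0.22 and 0.21 on days 1, 3 and 4, and -1.98 and -2.52 on days 5 and 7. The difference lay between days 4 and 5, at -2.19, in a step in which 5.4% of expressed genes were higher and 3.11% lower. After centring these shares were 3.56% and 5.36%, and after quantile normalisation 4.0% and 4.27%. Arg2 was 4.09-fold lower than mock on day 5 and 6.07-fold lower on day 7 without pseudocount.

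Set per kilobase of exon in GENCODE M21, which need not be the annotation the authors counted with, Arg1 was the higher of the arginases up to day 3 and Arg2 from day 4. The level of Arg1 per kilobase was 2105 in mock, 1766 on day 1 and 2331 on day 3, beside 1041, 800 and 1218 for Arg2. On day 4 Arg1 was at 91.2 per kilobase and Arg2 at 1211, so Arg2 was 13.3 times as high. On day 5 they were at 51.8 and 255 and on day 7 at 125 and 172. The day 7 order rests on the exon lengths used, 2228 bases for Arg1 and 1428 for Arg2. Before that division Arg1 was the higher on day 7, at 278 against 245, while Arg2 was the higher on days 4 and 5. Arg1 made up 66.9% of the sum of the arginases in mock and 68.8% and 65.7% on days 1 and 3, then 7.0%, 16.9% and 42.1% on days 4, 5 and 7. The sum itself was 3147 in mock and 2566, 3549, 1302, 307 and 296 on days 1, 3, 4, 5 and 7.

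**Figure D2:**
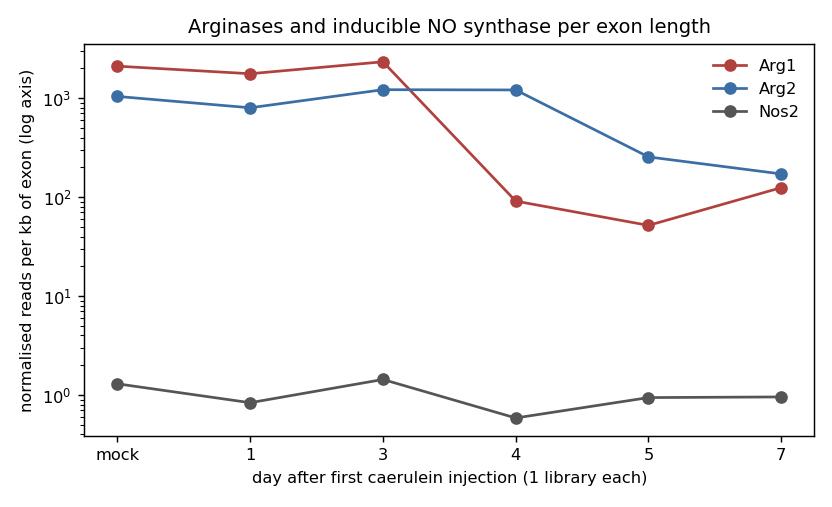
Normalised reads per kilobase of exon (log axis) of Arg1, Arg2 and Nos2 in the 6 libraries, 1 point per library. The Arg1 line is below the Arg2 line on day 4, at 91.2 against 1211, and Nos2 lies between 0.587 and 1.44 throughout.

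Inducible nitric oxide synthase was close to undetected on every day. Nos2 (ENSMUSG00000020826) had 6 reads in mock and 3, 9, 2, 4 and 5 reads on days 1, 3, 4, 5 and 7, which is 29 reads in all 6 libraries together. On the normalised scale Nos2 stood between 2.59 and 6.34, where 3 reads, the limit that a count of 0 allows, correspond to 2.11 to 3.88. Between libraries no difference in Nos2 was detectable at this depth, since the 95% counting intervals of the plain ratio to mock included equal levels on all 5 days, with log2 bounds of -3.26 to 1.59 for day 1. Per kilobase of exon Nos2 was at 1.30 in mock and 0.837 on day 1, where Arg1 was at 2105 and 1766. The other nitric oxide synthases were low as well: Nos1 had a normalised read count of at most 8, and Nos3, the endothelial enzyme, ranged from 10 to 31.

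Of the arginine supply genes Ass1 stood highest over mock, on day 1. Ass1 (ENSMUSG00000076441), argininosuccinate synthase, was at 153 normalised reads in mock and 721 on day 1, then 82.4, 54.3, 83.2 and 111 on days 3, 4, 5 and 7. Day 1 stood alone above the other 5 libraries, and days 3 and 5 were within counting error of each other. The log2 ratio to mock was 2.12 on day 1, a plain 4.72-fold (log2 interval 1.98 to 2.5), and -0.77, -1.24, -0.76 and -0.40 on the later days. On day 4 only 42 reads were counted, and with a pseudocount 5 times as large that ratio was -0.76 and no longer a call. From day 1 to day 3 Ass1 was lower by a log2 ratio of -2.88, where 9.72% of expressed genes were higher and 8.21% lower. Asl, argininosuccinate lyase, the next enzyme of this route, had 1079 in mock and 1544, 1350, 1278, 1232 and 698 on days 1, 3, 4, 5 and 7, within 2-fold of mock throughout.

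RefSeq promoter windows, 250 bases before to 50 after a start site, were found for 4 members: Ass1, Odc1, Sat1 and Sms, with 5 windows in all. They were searched on both strands for an E-box (CACGTG), the site type of Myc and related factors, and the palindrome stands in 1 window of Ass1 and 1 of Sms. Of all 32851 promoter windows 7.15% hold it. These 30 bases (build GRCm38.p6) are shown because Ass1 had the highest log2 ratio to mock of any member and Sms holds the other match, and the E-box is in capitals.
Ass1: cgcgcccgtcccCACGTGtcccaggttcct
Sms: cccagcggggttCACGTGcatttaaagaaa
The Ass1 sequence lies at chr2:31470222-31470251 on the plus strand, with the E-box starting 36 bases before the start site. The Sms sequence lies at chrX:157492466-157492495 on the minus strand, with the E-box starting 196 bases before the start site of that window. An AP-1 pattern (TGANTCA), a STAT6 type pattern (TTC and GAA with 4 bases between) and an interferon response pattern (GAAA repeated after 2 bases) had no match in the 5 windows, and 7.81%, 6.95% and 3.44% of all windows hold them. An NF-kB type pattern (GGG and CC with 5 bases between) matched 4 of the 5 windows, but 50.8% of all windows hold it. Patterns can overlap, and a match is no evidence of binding.

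Arginine uptake genes were mostly within 2-fold of mock. Slc7a2 (ENSMUSG00000031596), the inducible cationic amino acid transporter, was at 73.5 normalised reads in mock, from 77 reads, and 44.3, 24.7, 40.1, 31.2 and 35.5 on days 1, 3, 4, 5 and 7. Mock was highest, and the 5 caerulein libraries lay within counting error of their neighbours in order. The plain log2 ratio to mock on day 3 was -1.58, with an interval of -2.20 to -0.98. The ratio with pseudocount on day 1 was -0.56, but 0.17 after quantile normalisation. Of the 5 other arginine carriers 4 were expressed. Slc7a7, a light chain of the arginine exporter, was at 1982 in mock and at 5726 on day 1, a log2 ratio of 1.52, and was within 2-fold of mock on the other days. Its partner chain Slc3a2 was at 7270 in mock and 12959 on day 1, within 2-fold of mock, and at 4762 on day 7. Slc7a1, the constitutive carrier, was at 245 in mock and 110 on day 4 (-1.04, and -0.97 at the nearest to 0 under another scaling). Slc7a6 ranged from 176 to 275.

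Among 13 genes of the citrulline cycle, of other nitric oxide synthases, of synthase control and of the synthase cofactor tetrahydrobiopterin, 9 were expressed. On day 1 Gch1 was higher and Ddah2 lower than mock. Gch1, the rate-limiting enzyme of tetrahydrobiopterin synthesis, was at 3287 in mock and 7003 on day 1 (log2 ratio 1.09, and 0.76 under another scaling), and 1541 on day 7 (-1.08, and -0.80 under another scaling). Ddah2, which degrades an inhibitor of nitric oxide synthase, was at 329 in mock, 75 on day 1 (-1.90) and 590 on day 3. None of the 9 was called on days 3 and 4. On day 5 Nosip was higher, at 3116 against 1517 in mock (1.03, and 0.88 under another scaling), and none was lower. On day 7 Gch1 and Pts were lower and none was higher. Pts, another enzyme of tetrahydrobiopterin synthesis, was at 448 on day 7 against 932 in mock (-1.03, and -0.76 under another scaling).

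**Figure D3:**
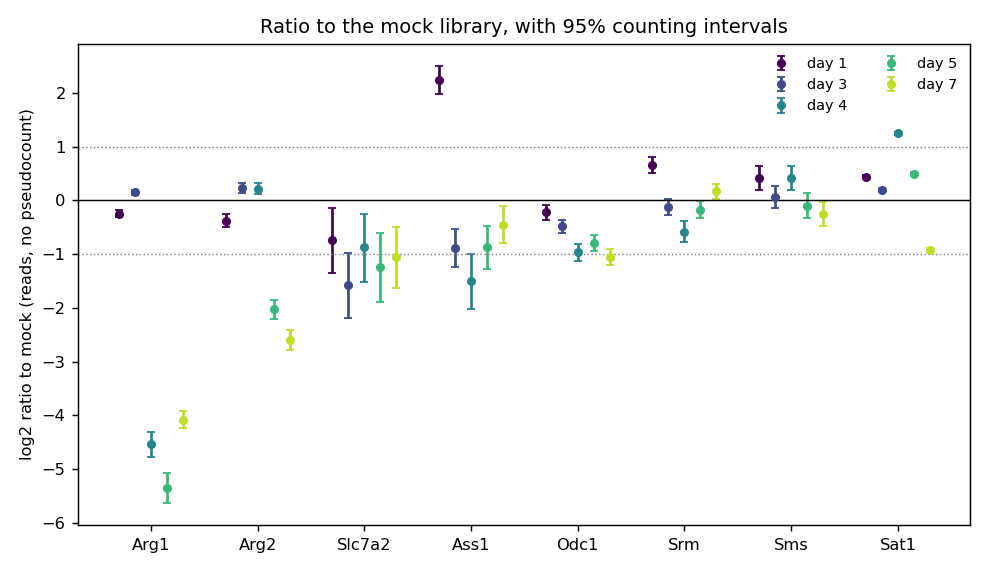
Plain log2 ratio of reads to the mock library (vertical axis, after the authors' normalisation and without pseudocount) for 8 of the genes on days 1, 3, 4, 5 and 7, with 95% counting intervals, and dotted lines at 2-fold. Nos2 is left out because of its 29 reads. Arg1 reaches -5.34 on day 5, while Srm and Sms stay within 2-fold on all days.

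The polyamine synthesis genes had narrower ranges than the arginases, 2.08-fold for Odc1, 2.35-fold for Srm and 1.60-fold for Sms against 45.0-fold for Arg1 and 7.10-fold for Arg2. Odc1 (ENSMUSG00000011179), ornithine decarboxylase, the rate-limiting enzyme whose protein is also controlled by antizymes, was at 1077 normalised reads in mock and 923, 773, 550, 621 and 518 on days 1, 3, 4, 5 and 7. Mock was highest and all 5 caerulein libraries were lower, with days 4 and 5 and days 4 and 7 within counting error of each other. The log2 ratios to mock were -0.22, -0.47, -0.95, -0.78 and -1.03, so day 7 was just past 2-fold and day 4 just short of it. Scaled to the library total day 4 was at -1.14 and called lower. Day 7 was no longer called under 3 other scalings, at -0.76 to -0.95, nor with the larger pseudocount (-0.94).

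Srm (ENSMUSG00000006442), spermidine synthase, was at 681 in mock and 1069, 625, 455, 603 and 764 on days 1, 3, 4, 5 and 7. Day 1 was highest and day 4 lowest, and day 3 was within counting error of mock and of day 5. The plain log2 ratio of day 5 to mock had an interval of -0.335 to -0.015, which leaves out equal levels. Sms (ENSMUSG00000071708), spermine synthase, had the narrowest range of the 7 expressed members: 323 in mock and 432, 339, 432, 301 and 269 on days 1, 3, 4, 5 and 7. Its log2 ratios to mock on days 3 and 7, 0.07 and -0.25, changed sign under another scaling. Neither gene was called against mock on any day.

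Another 13 genes control ornithine decarboxylase or serve the supply and salvage of the second substrate of spermidine and spermine synthase. Of these 10 were expressed, and none was called against mock on any day. Azin1, the antizyme inhibitor that protects ornithine decarboxylase, was at 1340 in mock and 2598 on day 1, a log2 ratio of 0.95, and 1168, 1144, 995 and 870 on days 3, 4, 5 and 7. Oaz1, the antizyme that targets ornithine decarboxylase for degradation, was at 19382 in mock and 23500, 31731, 24701, 17347 and 11123 on days 1, 3, 4, 5 and 7. Thus Azin1 was highest on day 1 and Oaz1 on day 3. Apip and Adi1, enzymes of methionine salvage, ranged from 173 to 556 and from 392 to 905, both highest on day 3 and lowest on day 7. Amd1 and Amd2 are near-identical copies that may share reads, and how such reads were counted was not given. Eif5a, whose protein carries the spermidine-derived residue hypusine, was at 16815 in mock, 20244 on day 1 and 10102 on day 7. Neither it nor Dhps and Dohh, which make hypusine, was called against mock on any day.

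Sat1 was the member with the highest level and peaked on day 4, the day on which Arg1 was already low. Sat1 (ENSMUSG00000025283) encodes the acetyltransferase that marks spermidine and spermine for oxidation or export. It was at 15526 normalised reads in mock and 21082, 17737, 36828, 21801 and 8166 on days 1, 3, 4, 5 and 7. Day 4 stood above all other libraries and day 7 below them, and no neighbours in that order lay within counting error. The summed level of the 10 macrophage genes was also highest on day 4 and lowest on day 7. It was 827370 in mock and 511516, 898795, 1450253, 1024893 and 473300 on days 1, 3, 4, 5 and 7. Most of each sum came from Lyz2, the only gene of the list that was highest on day 4, at 1241212. Ptprc, Itgam, Cd68 and Fcgr1 were highest on day 1, and Adgre1, Csf1r, Mertk, C1qa and C1qb on day 5. From day 5 to day 7, 7 of the 10 were lower. The part of the macrophage genes in the level of Sat1 was not tested. Against mock day 4 was 2.37-fold higher, a log2 ratio of 1.25 with a plain interval of 1.22 to 1.27, and between 1.05 and 1.31 over the scalings. The step from day 3 to day 4 was 1.05 (3.23% of expressed genes were higher), but 0.97 scaled to the library total and 0.95 after quantile normalisation. From day 5 to day 7 it was -1.41 (4.68% of expressed genes were lower), but -0.98 and -0.97 under those settings, under which 1.45% and 3.18% of expressed genes were lower. Day 7 against mock was -0.93 and not a call. Per kilobase of exon Sat1 was at 5597 in mock and 13276 on day 4, above the other 8 genes in every library.

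Among 6 further genes of polyamine breakdown and transport 4 were expressed, and the oxidases peaked on different days. Smox, spermine oxidase, was at 1397 in mock and 3335 on day 1 (log2 ratio 1.24, and 0.91 under another scaling), then 1040, 1249, 2048 and 1103. Paox, which oxidises the acetylated polyamines that Sat1 makes, was at 580 in mock and 858, 1013, 1498, 1492 and 704 on days 1, 3, 4, 5 and 7. It was called higher on days 4 and 5, at 1.34 on both. Atp13a2, a lysosomal polyamine exporter, was called higher on day 5, at 5581 against 2638 in mock (1.08, and 0.93 under another scaling). None of the 4 was lower than mock by 2-fold on any day.

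**Figure D4:**
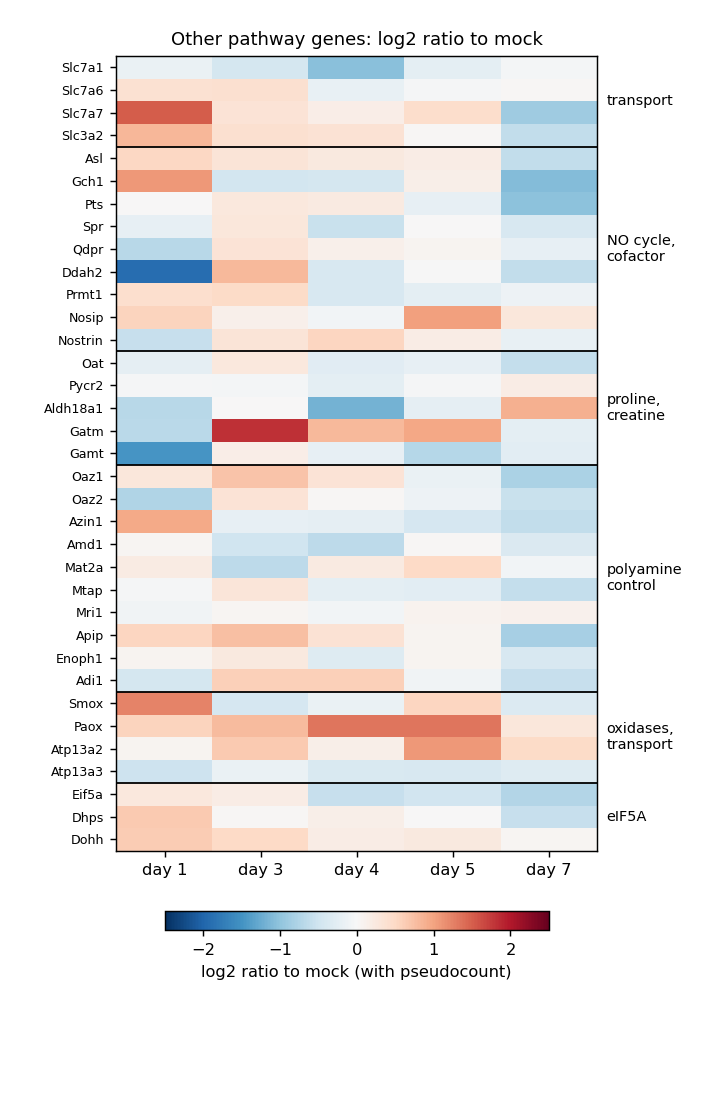
Log2 ratio to mock with pseudocount (colour, red higher and blue lower) of the expressed genes on 6 lists around the 9 members, in rows grouped by list, on days 1, 3, 4, 5 and 7 in columns. Gatm on day 3 (1.83) and Paox on days 4 and 5 (1.34) are among the higher values, and Ddah2 on day 1 (-1.90) is among the lower.

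Other uses of arginine and ornithine were covered by 10 genes of the mitochondrial urea cycle, proline and creatine, of which 5 were expressed. Gatm, which moves the amidino group of arginine to glycine in creatine synthesis, was at 11728 in mock and 7384, 41866, 20521, 23051 and 9874 on days 1, 3, 4, 5 and 7. It was the 1 gene of the list called higher on day 3, at 1.83. Gamt, the next enzyme of creatine synthesis, had 415 in mock, 138 on day 1 (-1.48) and 468 on day 3. Aldh18a1, which makes the precursor of proline and ornithine from glutamate, had 338 in mock, 140 on day 4 (-1.18) and 639 on day 7, where it was within 2-fold of mock. Oat, ornithine aminotransferase, ranged from 1688 to 3110. The urea cycle genes Otc and Cps1 had at most 6 and 10.

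All 13 listed transcription factors and receptors known to act on Arg1, Nos2 or Odc1 were expressed. On day 1 Pparg and Ifngr2 were higher and Klf4, Ifngr1 and Myc lower than mock. On day 3 Il4ra was higher and Myc lower, on day 4 Pparg higher and Myc lower, and on day 5 none was higher and Cebpb and Myc were lower. None was called on day 7. Myc, which acts on Odc1, was at 2188 in mock, 971, 1011, 631 and 1041 on days 1, 3, 4 and 5, and 1756 on day 7. It was lower than mock on those 4 days, at -1.16, -1.10, -1.76 and -1.06. Myc and Odc1 were both highest in mock, but their courses differed. On day 1 the ratio of Odc1 was -0.22, and on day 7, when Myc was within 2-fold of mock, Odc1 had its lowest value, 518. The part of Myc in the level of Odc1 was not tested. Stat6, which carries interleukin 4 signals to Arg1, ranged from 2462 to 4691 and was within 2-fold of mock throughout. The receptor gene Il4ra was at 1085 in mock, 2423 on day 3 (1.15) and 1162 on day 4. Ifngr1 and Ifngr2, which encode the interferon gamma receptor, were at 6265 and 2573 in mock and 3072 and 6416 on day 1, where the ratio of Ifngr2 was 1.31 (0.95 under another scaling). Cebpb was at 21183 in mock and 10458 on day 5 (-1.02, and -0.88 under another scaling). Pparg, a nuclear receptor, had 515 in mock, 1948 on day 1 (1.88), 316 on day 3 and 1091 on day 4 (1.06, and 0.87 under another scaling). Klf4 had 1313 in mock, 596 on day 1, 717 on day 3 and 1947 on day 4.

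For the 4 members that ranged at least 4-fold over the 6 libraries, as did 14.6% of expressed genes, the 3 genes with the most similar course were named. Likeness was Pearson's r of log2 values over 6 points that share the same libraries, taken as the highest of 1353 candidates, so high values are given by the choice. For Arg1 they were Nfil3 (r = 0.98), Gstp1 (0.97) and Nrg1 (0.95). Nfil3, a transcription factor gene, had 3661, 3680 and 3893 in mock and on days 1 and 3 and 1496, 800 and 1121 on days 4, 5 and 7. For Arg2 they were Coq10b (0.99), Hilpda (0.97) and Ptgs2 (0.97). Ptgs2, the inducible cyclooxygenase, had 2796, 1632, 3908 and 2549 up to day 4 and 754 and 601 on days 5 and 7. For Ass1 they were Ly6c1, Ly6c2 and Ly6i (each 0.98), of which the closely related Ly6c1 and Ly6c2 may share reads, and Ly6i was at 0 on day 4. For Sat1 they were Glipr1, Rasgef1b and Rgs2 (each 0.98).

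The other cells that the sort could hold also differed between libraries. Of 8 monocyte genes 5 were higher and 1 lower than mock on day 1, 7 were lower on days 4 and 5, and their summed level was 44976 in mock and 133161, 48897, 21343, 17596 and 23406 on days 1, 3, 4, 5 and 7. Plac8 was at 4851 in mock and 39864 on day 1, while Ccr2 was at 18326 and 23258. The monocyte marker Ly6c2 had 2671 in mock and 37117 on day 1, the day on which Ass1 was high. The list was mixed on day 3, when Arg1 was at 5194. Ly6c2 was then at 234, below its mock level, while Chil3 was at 6937 against 3672 in mock, and Ccr2 (25880) and Fn1 (13266) were at their highest. From day 3 to day 4, the step in which Arg1 was lower, 6 of the 8 monocyte genes were lower and none was higher, with Fn1 at 1625 and Chil3 at 1593 on day 4. Acinar genes were high in mock and on day 7: 12 of 12 were lower than mock on days 1, 3, 4 and 5 and none on day 7. Pnlip and Cel, acinar lipases, were at 119710 and 93742 in mock and at 1854 and 3184 on day 4. Summed acinar genes took 3.51% of all normalised reads in mock and 5.24% on day 7, against 0.150% to 0.408% on the other days. Arg1 was high in 1 of these acinar-rich libraries and low in the other, whereas Sat1 was lowest on day 7 and next lowest in mock.

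Fibroblast genes summed to 3072 in mock and 517, 15691, 798, 2044 and 8418 on days 1, 3, 4, 5 and 7, so they too were lower on day 4 than on day 3, as Arg1 was. On day 1 fibroblast genes were at their lowest while Arg1 was at 3934. Duct genes summed to 3893 on day 3 and 648 on day 4. Of 9 expressed neutrophil genes 7 were lower than mock on days 3 and 4 and 8 on day 5, and 7 were lower on day 5 than on day 4, the step in which Arg2 was lower, with sums between 4653 and 14164. Retnlg was the 1 neutrophil gene higher than mock on day 4, at 9911 against 3522, and made up most of the sum of that day, 14164. From day 5 to day 7, 7 neutrophil genes were higher and none was lower, while Arg2 was at 364 and then 245. Eosinophil genes summed to 2247 on day 4 and to between 132 and 1224 in the other libraries, and all 3 expressed ones were lower on day 5 than on day 4. Lymphoid genes summed to 8513 in mock and 9968 on day 7 and to at most 2918 on the other days, and dendritic cell genes to between 836 and 7098. Endothelial genes summed to at most 1533 and erythroid genes to at most 3609. Epx (eosinophil), Cldn4 (duct) and Hbb-bt (erythroid) were at 0 in at least 1 library. In a bulk library fewer cells with a transcript and less of it per cell cannot be told apart, and the part of these cells in the levels of the 9 genes was not tested.

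**Figure D5:**
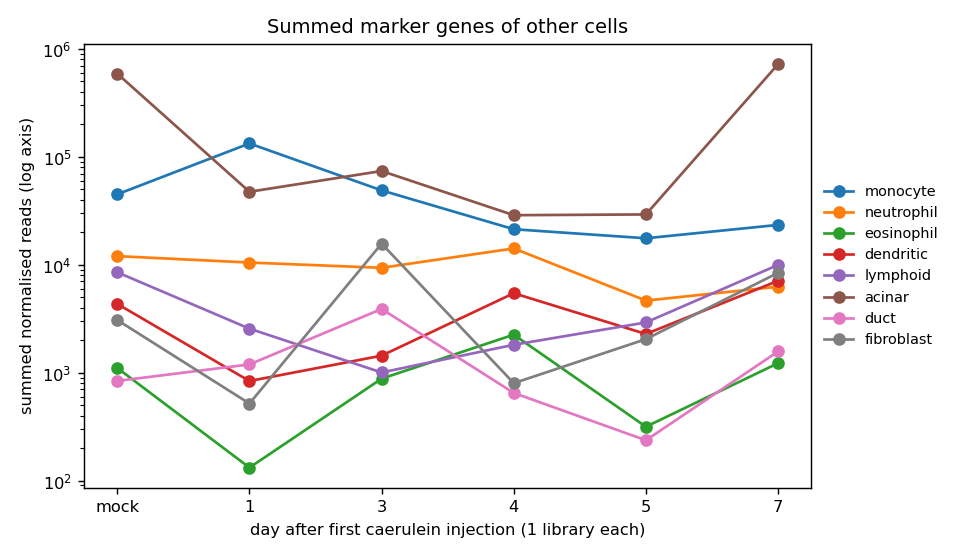
Summed normalised reads (log axis) of marker genes of 8 other cell types in the 6 libraries, 1 point per library and line per type. Monocyte genes peak on day 1 at 133161, fibroblast genes on day 3 at 15691, and acinar genes are high in mock and on day 7.

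Count tests that treat libraries of different days as replicates called none of the members that they could test. With edgeR's quasi-likelihood test and Benjamini-Hochberg adjustment, 0 of 14106 genes were called for the 5 caerulein libraries against mock, and 102 had an unadjusted p below 0.05. For a linear trend over day edgeR called 0 of 14106, with 806 below 0.05 unadjusted. DESeq2 called 2 and 20 genes, none of them a member. Nos2 had too few reads to enter, and DESeq2 gave no p for Ass1 against mock, so Ass1 could not be called there. Arg1 had a trend of -0.72 per day on the log2 scale (adjusted p = 0.73 in edgeR and 0.11 in DESeq2), and Odc1 a trend of -0.15 per day (adjusted p = 0.73 and 0.48). A peak or step on 1 day counts as error in these tests, and a p that misses the threshold does not show that the levels were alike.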

How the data were processed

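RNA-seq of sorted macrophages gave 6 libraries, grouped by the day in the sample titles. The authors deposited a normalised signal per gene, and every column holds whole multiples of 1 step: 100% of values came out whole within 0.01 reads, so the values are read counts divided by 1 factor per library. Per the submitters' processing notes the tool was Bowtie 0.12.2 and the build mm8, with no step attached to either. How genes were counted (annotation, strand, shared reads) was not given in the sources used here. Of the identifiers 99.4% matched a table of mouse gene names.

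The members and gene lists were chosen with earlier results of these data known, and 2 genes of those lists are not reported here. Named genes are the 9 members, the 3 sort genes, up to 4 genes per pathway list with the widest range, and 3 with the most similar course. Ccr2, Plac8, Cel, Pnlip and Retnlg are named as among the 2 highest of their list of other cells, and for the remaining such lists these are not named. Other genes named were chosen after their values were seen: Nos1, Nos3, Nosip, Slc7a6, Dohh, Oat, Amd1, Amd2, Otc, Cps1, Stat6, Il4ra, Ifngr2, Cebpb, Chil3, Fn1, Csf1r, Cd68, Fcgr1, Mertk, C1qa, C1qb, Lyz2, Epx, Cldn4 and Hbb-bt. The pseudocount of 17.8 is the mean column total divided by 1000000. Counting intervals are 95% Clopper-Pearson (ratios) or exact Poisson (levels). Alternatives changed scaling, pseudocount and filter. Recovered reads of genes with at least 60 reads were tested with edgeR 4.0.16 (TMM) and DESeq2 1.42.0 in R 4.3.3. Calculations were tested on simulated data. Other steps ran in Python 3.11.15 (pandas 2.3.3, numpy 2.4.6, matplotlib 3.10.9, scipy 1.17.1).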

Additional observations from a re-analysis of the deposited data

How the results depend on the processing

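Of 405 recalculations of single member ratios 330 moved by less than their counting error, 75 moved by more and none of those called changed sign. Against mock, the count of members higher on day 1 went from 1 to 0 among the 6000 highest genes, which leave out Ass1. The count lower on day 3 went from 0 to 1 with no filter on low values, which adds Slc7a2. The count lower on day 4 went from 2 to 1 among the 6000 highest genes and with a pseudocount 5 times as large, in both cases without Ass1, and from 2 to 3 scaled to the library total, which adds Odc1. The count lower on day 7 went from 3 to 2, without Odc1, after each of the 3 other scalings and with the larger pseudocount. Scaled to the library total and after quantile normalisation, the count higher from day 3 to day 4 and the count lower from day 5 to day 7 each went from 1 to 0, both times for Sat1. Scaling moved the median of all expressed genes by up to 0.41 (day 7 against day 5, scaled to the library total).

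In the count tests DESeq2 called 2 genes against mock and 20 for the trend, and edgeR with no filter called 2 for the trend. Leaving out each caerulein library in turn, edgeR called between 0 and 0 genes in either test. The cause of these differences was not tested. No paired analysis was possible because there is 1 library per day and the labels carry no replicate numbers. Depth limits Nos2 and Slc7a2 most.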
